A study of Mus musculus with 8 samples.

Results

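Interferon-stimulated genes, interferon regulatory factors (IRFs) and STAT transcription factors were followed in immortalised mouse embryonic fibroblasts given retinoic acid (RA). The members were chosen by symbol alone, as every gene in the table named as an Ifit, Ifitm, Irf, Stat, Oas, Gbp, Mx, Isg or Ifi gene, with Usp18, Rsad2, Bst2, Ifih1 and Ddx58 added. This gave 63 of the 22200 genes listed. Of these, 37 had a mean of at least 10 normalised reads over the 8 libraries and were tested, and 26 lay below that level. The rule takes names, so it also holds Irf2bp1 and Irf2bp2, which encode partners of IRF2 and not IRFs, and Isg20l1 and Isg20l2, which are named for their likeness to Isg20.

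The 8 libraries came from C57BL/6 cells whose genotype label is TAF4-/-. TAF4 is a subunit of TFIID, which binds core promoters. Untreated cultures were taken at 12 h (n = 3), and RA was given for 12 h (n = 3) or 72 h (n = 2). By the study's methods the null cells derive from one floxed fibroblast line by expression of Cre recombinase, so the groups are cultures of 1 line and not separate animals, and p-values measure the spread between these libraries. All groups share the null genotype label, but the titles carry cl1, which resembles the study's name for its TAF4-expressing line. Taf4a itself was listed at 983.75 to 1449.25 normalised reads (median 1233.94), without a TAF4-expressing library beside it. Reads outside the deleted part would still be counted, so this value does not check the genotype. No untreated library was taken at 72 h, so RA and time in culture cannot be told apart in any comparison with 72 h.

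Interferons act through cell-surface receptors and the kinases JAK1, JAK2 and TYK2. Type I interferon drives the assembly of STAT proteins and IRF9 into a complex that binds the interferon-stimulated response element (ISRE), and interferon gamma drives STAT dimers that bind the gamma-activated site (GAS). The genes under these elements encode antiviral proteins, among them IFITs, which bind foreign RNA, OAS enzymes, which switch on RNase L, MX and GBP GTPases, and the ubiquitin-like protein ISG15. Sensors such as RIG-I (Ddx58) and MDA5 (Ifih1) detect viral RNA and activate IRF3 and IRF7, which switch on the interferon genes and some interferon-stimulated genes directly. Fibroblasts are a classical source of interferon beta and a classical responder to it.

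At 72 h, 5 of the 37 tested members (13.5%) were lower than in untreated cells past an adjusted p of 0.05, beside 5.41% of all genes tested, and 3 (8.11%) were higher, beside 6.08%. Ifit1 and Irf7 were lower by more than 2-fold in cells given RA for 72 h than in untreated cells. Isg15, Isg20 and Ifitm3 fell by less than 2-fold, while Ifit2, Ifi30 and Irf2bp2 rose by less than 2-fold. The 7 STATs and the other IRFs did not pass the test at 72 h.

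The promoters of 4 of these genes are printed here because the ISRE is the sequence that the interferon complex reads, and because Ifit1, Isg15 and Ifit3 carry it while Irf7 does not in this window. Each runs from 250 bases before the RefSeq start site to 50 after it, 5′ to 3′ on the gene's own strand, on assembly GRCm38.p6. Capitals mark matches to the ISRE core, which is GAAA, any 2 bases and GAAA again, on either strand. The windows lie at chr19:34640639-34640938 (plus strand) for Ifit1, chr19:34583279-34583578 (plus strand) for Ifit3, chr4:156200769-156201068 (minus strand) for Isg15 and chr7:141266375-141266674 (minus strand) for Irf7.
Ifit1: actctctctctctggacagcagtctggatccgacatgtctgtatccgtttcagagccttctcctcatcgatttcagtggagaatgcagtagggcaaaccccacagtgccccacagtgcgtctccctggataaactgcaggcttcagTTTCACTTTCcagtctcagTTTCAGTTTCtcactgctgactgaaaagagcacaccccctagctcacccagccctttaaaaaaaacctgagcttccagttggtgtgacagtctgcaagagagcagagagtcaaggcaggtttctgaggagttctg
Ifit3: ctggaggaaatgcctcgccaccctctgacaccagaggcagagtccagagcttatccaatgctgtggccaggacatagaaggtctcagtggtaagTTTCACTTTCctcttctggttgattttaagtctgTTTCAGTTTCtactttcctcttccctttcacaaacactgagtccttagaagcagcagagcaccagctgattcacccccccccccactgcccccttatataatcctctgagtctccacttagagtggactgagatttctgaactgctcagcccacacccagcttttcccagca
Isg15: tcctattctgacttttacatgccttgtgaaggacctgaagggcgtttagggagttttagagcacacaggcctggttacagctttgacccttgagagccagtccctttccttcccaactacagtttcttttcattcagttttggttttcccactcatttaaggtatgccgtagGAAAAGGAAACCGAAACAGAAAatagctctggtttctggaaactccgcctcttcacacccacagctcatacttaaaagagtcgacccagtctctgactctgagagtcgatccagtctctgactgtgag
Irf7: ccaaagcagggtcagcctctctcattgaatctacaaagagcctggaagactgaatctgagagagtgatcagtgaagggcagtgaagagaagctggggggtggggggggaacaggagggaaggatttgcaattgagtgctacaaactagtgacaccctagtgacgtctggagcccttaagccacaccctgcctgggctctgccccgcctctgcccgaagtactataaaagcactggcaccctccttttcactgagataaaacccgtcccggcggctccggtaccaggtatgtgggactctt
Ifit1 and Ifit3 each hold 2 copies, read from the reverse strand, which start 104 and 85 bases before the start site in Ifit1 and 156 and 122 bases before it in Ifit3. Isg15 holds 3 overlapping copies on the forward strand, starting 78, 72 and 66 bases before its start site. Both windows of Ifit2 lack the ISRE letters, and 1 of them holds a match to the GAS letters TTCNNNGAA at 241 bases before its start.

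Of the 63 members, 48 were found by symbol in the promoter table. The ISRE core, searched on both strands, was in the promoters of 20 of these 48 genes (41.7%) and of 3.99% of all 27025 genes in the table. The GAS letters, searched on both strands as well, were in 12 of the 48 (25%) against 9.55% of all genes. Genes with more than 1 start site had more than 1 window. Over windows of this same length, the ISRE share was 33.9% for members and 3.44% for all. These matches describe letters in a window and do not show that a factor was bound.

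The level of the module in untreated cells came first. Levels of different genes are compared here as normalised reads per kilobase of exon, which assumes that reads fell along the whole transcript. Ifitm3, whose protein holds viruses in endosomes, was far above the rest at 13320 per kilobase. Irf2bp1 (329.1), Ifi35 (295.9), Bst2 (252.8), Ifi30 (209.3), Irf3 (189.4), Stat3 (155.3) and Isg15 (120.3) followed, and 9 tested members in all exceeded 100. Oas3, an oligoadenylate synthetase, was the lowest tested member at 2.774 per kilobase. The 26 members below the test level had means from 1.109 to 8.984 normalised reads over the 8 libraries, 19 of them under 5. The floor of the table is 1, and 16 members stood at it in at least 1 library.

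**Figure D1:**
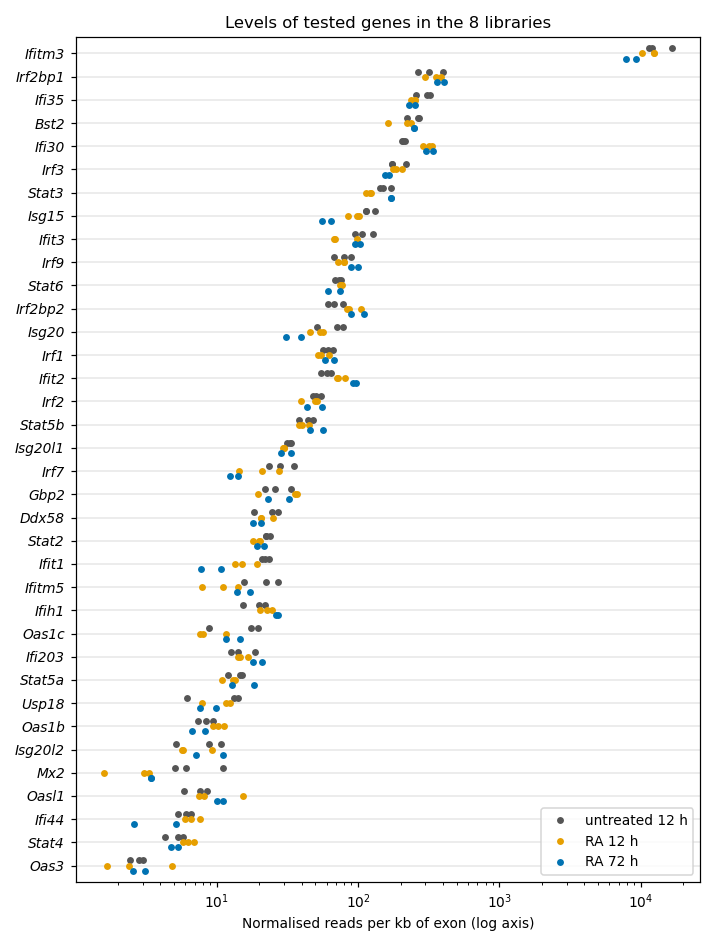
Level of tested members as normalised reads per kilobase of exon, on a log axis. Each point is 1 library, coloured by group, and genes are in order of their level. Ifitm3, at 13320 per kilobase in untreated cells, lies far above every other member drawn.

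Several classical interferon-stimulated genes were among the low members. Rsad2, which encodes the antiviral enzyme viperin, read 1.875, 3.375 and 1 normalised reads in the 3 untreated libraries, 6.625, 4.875 and 3.375 after RA for 12 h, and 2.25 and 3.25 after RA for 72 h. Mx1, an MX GTPase, read 9, 15.75 and 3.5 untreated, 6, 1.5 and 1 at 12 h, and 3.375 and 1 at 72 h. Oas1a read 1.5, 5.75 and 1, then 1, 1 and 2.375, then 1 and 1. Rsad2 was near the floor in every group, whereas Mx1 and Oas1a each had their highest value in untreated replicate 2. Oasl2, the highest of the untested members, read 15.75, 13.375 and 7.25 untreated, 6.625, 8 and 7.625 at 12 h, and 6.625 and 6.625 at 72 h. None of these 4 genes was tested. Irf4, Irf5 and Irf8, known mainly from immune cells, had group means between 1.792 (Irf5, untreated) and 7.167 (Irf5, RA 12 h). Irf5, not tested either, read 3.375, 1 and 1 untreated, 10.375, 5.875 and 5.25 at 12 h, and 3.5 and 5.625 at 72 h.

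The interferon genes themselves were hardly detected. Ifnb1, which encodes interferon beta, read 1, 1 and 1.375 normalised reads untreated, 1, 1.75 and 1 at 12 h, and 2.375 and 2 at 72 h. Ifna4 was at the floor of 1 in 7 libraries and at 1.5 in untreated replicate 3. From a list of 15 interferon ligands and receptors, 9 were in the table and 5 were tested. At 12 h 1 of these 5 was higher past an adjusted p of 0.05 in limma, Ifngr1, and at 72 h 2 were, Ifngr1 and Ifnar2, with 0 lower at either time and 0 of the 5 changed by 2-fold. Over all genes tested, 2.87% were higher by this rule at 12 h and 6.08% at 72 h, and 1.5% and 5.41% were lower.

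Ifngr1 encodes the ligand-binding chain of the interferon gamma receptor. It read 1000.75, 1105.88 and 869.125 normalised reads untreated, 1436.5, 1674.13 and 1537.13 after 12 h of RA, and 1453.75 and 1745.88 after 72 h, with no overlap between treated and untreated libraries. Its log2 change was 0.65 ± 0.12 (SE; limma adjusted p = 0.00467) at 12 h and 0.69 ± 0.13 (limma adjusted p = 0.00338) at 72 h. Ifngr2, listed for the same receptor, went the other way at 72 h, to 75 and 107.75 from 147.125, 189 and 114.75 untreated. Its log2 change of -0.71 ± 0.22 did not pass (limma adjusted p = 0.0539). Ifnar2, a chain of the type I receptor, changed by 0.53 ± 0.15 (limma adjusted p = 0.0389) at 72 h, from 1183 ± 238 (SD, n = 3) to 1690 ± 148.4 (n = 2).

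The kinases and inhibitors of the pathway were tested as 16 genes. At 12 h 0 of them passed the adjusted p, where 2.87% of all genes were higher and 1.5% lower. At 72 h 2 were lower, where 5.41% of all genes were, and 0 were higher, where 6.08% were. Tyk2, the kinase that sits on the type I receptor, fell by 0.69 on the log2 scale (SE 0.18, limma adjusted p = 0.0256), from 210.125, 154 and 236 normalised reads untreated to 120 and 122.75. Socs2, a feedback inhibitor of cytokine signalling, fell by 0.71 (SE 0.13, limma adjusted p = 0.00338) and was also lower at 72 h than at 12 h (log2 change -0.53, limma adjusted p = 0.0333). Of 15 tested nucleic acid sensors and adaptors that are not members, 0 passed the adjusted p in any comparison. Over all genes, 2.87% were higher and 1.5% lower at 12 h, and 6.08% and 5.41% at 72 h. From 12 h to 72 h these shares were 2.92% each way.

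**Figure D2:**
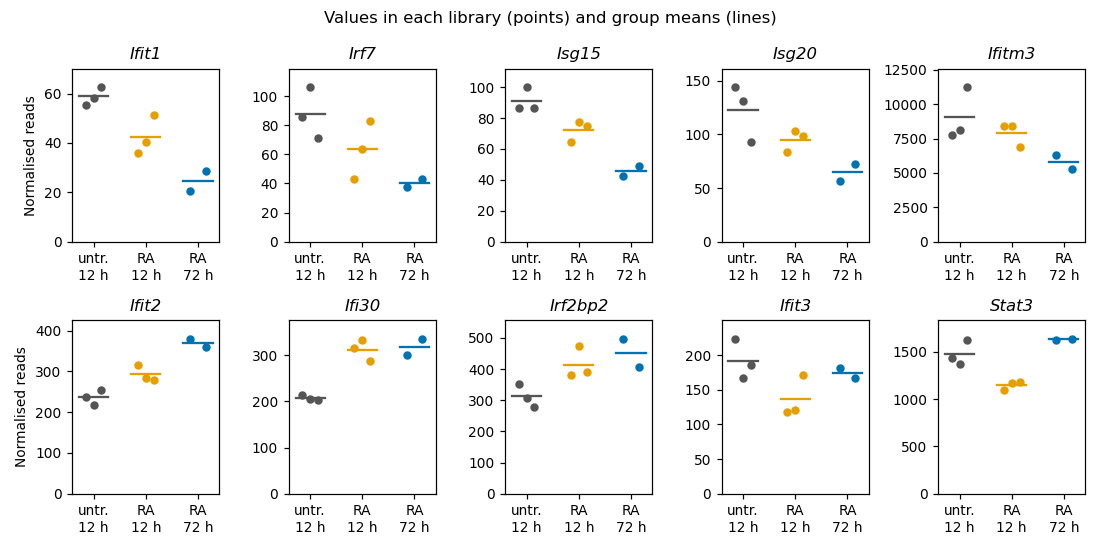
Normalised reads in each library for the 9 members that passed an adjusted p of 0.05 in a comparison, with Ifit3 beside them. Each point is 1 library, grouped as untreated 12 h, RA 12 h and RA 72 h, and lines are group means. Ifit1 steps down from 58.83 through 42.62 to 24.62 normalised reads while Ifit2 steps up from 236.1 through 293.2 to 369.7.

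Of the IFITs, Ifit1 (mm9 chr19:34715361-34724499) read 55.5, 58.375 and 62.625 normalised reads untreated, 36.125, 40.375 and 51.375 after RA for 12 h, and 20.5 and 28.75 after RA for 72 h. The 3 groups did not overlap. At 72 h its log2 change was -1.24 ± 0.24 (SE; 95% interval -1.75 to -0.73; limma adjusted p = 0.00381). At 12 h the change was -0.47 ± 0.21 (limma adjusted p = 0.295), which did not pass. Without RA 72 h replicate 1 the change at 72 h was -1.01 (limma adjusted p = 0.0648). In the exons of Ifit1, 7.06% of stretches of 50 bases and 11.2% of those of 18 bases also occur in 2010002M12Rik, so some reads may be shared.

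Ifit2 (mm9 chr19:34625184-34650909), a neighbour of Ifit1 on the same strand, moved the other way. It read 237.625, 216.875 and 253.875 untreated, 317, 284.25 and 278.375 at 12 h, and 379.625 and 359.75 at 72 h. These groups did not overlap either. The log2 change at 72 h was 0.65 ± 0.13 (limma adjusted p = 0.00462), short of 2-fold, and at 12 h it was 0.31 ± 0.11 (limma adjusted p = 0.177). Without RA 72 h replicate 1 the adjusted p at 72 h was 0.0637.

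Ifit3 (mm9 chr19:34658021-34663221) lies between them and read 223.125, 166.5 and 185.375 untreated, 118.25, 120.75 and 171.625 at 12 h, and 181 and 167.25 at 72 h. Its log2 change was -0.49 (95% interval -0.85 to -0.13; limma adjusted p = 0.138) at 12 h and -0.13 (95% interval -0.53 to 0.27) at 72 h. Neither passed. Ifit3 shares 51.5% of its stretches of 50 bases with a near-identical copy, I830012O16Rik, so its value is uncertain.

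Of the IRFs, Irf7 (mm9 chr7:148448605-148452380), the amplifier of the type I interferon response, was the member with the second call. It read 85.5, 106.125 and 71.5 normalised reads untreated, 43.25, 63.75 and 83 at 12 h, and 37.875 and 43.125 at 72 h. The 72 h libraries lay below every untreated library, and the 12 h libraries overlapped the untreated ones. The log2 change at 72 h was -1.08 ± 0.26 (95% interval -1.65 to -0.51; limma adjusted p = 0.0164). This call depended on single libraries, since the adjusted p was 0.0546 without untreated replicate 1, 0.0565 without untreated replicate 2, 0.13 without RA 72 h replicate 1 and 0.0598 without RA 72 h replicate 2, with changes of -1.09, -0.94, -0.99 and -1.17.

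Of the other tested IRFs, 0 passed the adjusted p at either time. Over all genes, 2.87% were higher and 1.5% lower by this rule at 12 h, and 6.08% and 5.41% at 72 h. Irf3, which is activated by the RNA and DNA sensors, read 552.5, 556.5 and 701.875 untreated, 655.375, 596.75 and 564.375 at 12 h, and 528 and 497.25 at 72 h (log2 change -0.23 at 72 h, 95% interval -0.51 to 0.06). Irf1, an activator that RA is known to raise in myeloid leukaemia cells, read 226.25, 245.5 and 263 untreated, 219.125, 249.375 and 206 at 12 h, and 271.25 and 231.25 at 72 h. Its log2 change was -0.12 (95% interval -0.40 to 0.15) at 12 h and 0.03 (95% interval -0.27 to 0.34) at 72 h, so at 12 h a rise above 0.15 on the log2 scale lies outside the interval. Irf9, the DNA-binding partner of STAT2, read 366, 483.375 and 431 untreated, 430, 427.625 and 387.75 at 12 h, and 479.5 and 541.25 at 72 h. Its change of 0.26 at 72 h had an interval from -0.03 to 0.56. Irf2bp2, a repressor partner of IRF2, was higher at 72 h (log2 change 0.53 ± 0.15, limma adjusted p = 0.0339), at 496.625 and 406.625 against 352.375, 305.75 and 279.75 untreated. That call was lost in 6 of 15 alternatives, which are among the limits.

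All 7 STATs were tested, and their changes at 72 h against untreated lay between -0.15 and 0.23 on the log2 scale. Of these, 0 passed the adjusted p, where 6.08% of all genes were higher and 5.41% lower. Stat3, the STAT of interleukin 6 signalling, alone of the tested members passed the adjusted p between the RA times. It was higher at 72 h, as were 2.92% of all genes by this rule. It read 1436.5, 1373.88 and 1628.75 normalised reads untreated, 1091.75, 1167.5 and 1175.75 at 12 h, and 1627.88 and 1635.38 at 72 h. All 12 h libraries were below all others. The log2 change from 12 h to 72 h was 0.51 ± 0.11 (limma adjusted p = 0.013). Leaving out RA 12 h replicate 1, RA 12 h replicate 2 or either RA 72 h library raised the adjusted p above 0.05 (highest over all alternatives 0.112), with changes of 0.48 to 0.53 over the libraries left out. At 12 h against untreated the change was -0.37 ± 0.10 (limma adjusted p = 0.0497), a margin that 11 of 15 alternatives removed, with changes from -0.42 to -0.30. Leaving out untreated replicate 1 or 3, or any library given RA, was among these.

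Stat2, which joins the type I interferon complex with IRF9, read 98.5, 98.25 and 104.75 untreated, 79.625, 88.875 and 88.25 at 12 h, and 96.125 and 84.625 at 72 h (log2 changes -0.23 and -0.15, neither past the adjusted p). Stat5a and Stat5b, which share 14.7% and 11.1% of their stretches of 50 bases with each other, and Stat4 and Stat6 gave changes between -0.15 and 0.28 at 12 h.

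Of the 4 genes named Isg, Isg15 and Isg20 were lower past the adjusted p at 72 h, beside 5.41% of all genes tested. Isg15 (mm9 chr4:155573533-155574927), the ubiquitin-like modifier, read 86.5, 100 and 86.25 normalised reads untreated, 64.25, 77.375 and 75 at 12 h, and 42.375 and 49.125 at 72 h, without overlap between groups. Its log2 change at 72 h was -0.98 ± 0.18 (95% interval -1.37 to -0.58; limma adjusted p = 0.00343), just short of 2-fold. Without RA 72 h replicate 1 it was -0.87 (limma adjusted p = 0.0516). Isg20 (mm9 chr7:86058310-86065248), an RNA exonuclease that restricts RNA viruses, read 143.875, 130.875 and 93.125 untreated, 83.5, 102.875 and 98 at 12 h, and 56.75 and 72.125 at 72 h. Its change at 72 h was -0.90 ± 0.21 (limma adjusted p = 0.0123), and the adjusted p was 0.0615 without untreated replicate 1 and 0.149 without RA 72 h replicate 1. Isg20l1 and Isg20l2 gave -0.08 and 0.17 and did not pass.

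Usp18 encodes the protease that removes ISG15 from proteins and damps the type I receptor. It read 25.125, 23.625 and 10.875 normalised reads untreated, 20.75, 14 and 22 at 12 h, and 17.5 and 13.5 at 72 h, so the groups overlapped. Its log2 change at 72 h was -0.27 with an interval from -1.09 to 0.56, an interval that holds both 0 and the change of Isg15.

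The membrane proteins of the module differed among themselves. Ifitm3 (mm9 chr7:148195485-148196669) read 7725.5, 8144.88 and 11232.1 untreated, 8435.63, 8435.63 and 6902.88 at 12 h, and 6290.63 and 5312.88 at 72 h. Both 72 h libraries and RA 12 h replicate 3 lay below all untreated ones. In Ifitm3, 10% of stretches of 50 bases and 20% of those of 18 bases also occur in other genes. Some of its reads may thus be shared. Its log2 change at 72 h was -0.62 ± 0.16 (limma adjusted p = 0.0237), and 5 of 15 alternatives, among them leaving out either RA 72 h library, raised the adjusted p above 0.05 (highest 0.187). Bst2, the tetherin that holds budding virus on the cell, read 168.5, 203.25 and 207.75 untreated, 171.125, 181.75 and 124.375 at 12 h, and 190.625 and 191.125 at 72 h, a change of -0.01 at 72 h (95% interval -0.39 to 0.37). Ifitm6 was below the test level and read 16.25, 12.5 and 7.25 untreated, 5.625, 7.75 and 6 at 12 h, and 1 and 2.5 at 72 h.

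Of the IFI genes, Ifi30 was higher past the adjusted p at both times. Over all genes, 2.87% were higher by this rule at 12 h and 6.08% at 72 h. Ifi30 (mm9 chr8:73286673-73291050), a lysosomal thiol reductase that unfolds antigens and is induced by interferon gamma, read 213.375, 206 and 204.125 normalised reads untreated, 316, 332.375 and 288 at 12 h, and 301.375 and 335.25 at 72 h. Every treated library lay above every untreated one, and both treated groups overlapped. The log2 change was 0.58 ± 0.11 (limma adjusted p = 0.00754) at 12 h and 0.61 ± 0.13 (limma adjusted p = 0.00595) at 72 h, below 2-fold at each time. Without RA 12 h replicate 2 the adjusted p at 12 h was 0.0678, and without RA 72 h replicate 2 that at 72 h was 0.0822. Ifi44 had one of the larger negative changes at 72 h (-0.69, limma adjusted p = 0.159), and did not pass. Its 72 h libraries read 31.375 and 15.875, the first of them close to the lowest of the untreated values of 32.75, 37.25 and 40.375.

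The sensors gave no call. Over all genes, 1.11% were called higher and 0.308% lower at 12 h, and 2.15% and 1.52% at 72 h. Ifih1 read 121.875, 109.5 and 85.25 untreated, 135.625, 112.625 and 125.875 at 12 h, and 146.25 and 149.625 at 72 h (log2 change 0.50 at 72 h, limma adjusted p = 0.0957). Ddx58 read 173.875, 191 and 130.5 untreated, 145.375, 146.25 and 175.75 at 12 h, and 127.625 and 145.375 at 72 h, where its change was -0.26 (95% interval -0.65 to 0.13).

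The MX GTPases and OAS enzymes were low and variable. Gbp2 was not among the low genes, at 27.16 per kilobase in untreated cells beside 22.15 for Ifit1. Mx2, a GTPase of the same family as Mx1, read 14.75, 26.75 and 12.375 untreated, 3.875, 7.375 and 8 at 12 h, and 8.375 and 8.375 at 72 h. Treated and untreated libraries did not overlap, and the log2 changes of -1.33 ± 0.39 (limma adjusted p = 0.0832) and -0.94 ± 0.44 (limma adjusted p = 0.209) did not pass. Without untreated replicate 3, Mx2 and Oas1c were both called lower at 12 h. Gbp2, the only tested guanylate-binding protein, read 55.125, 84.5 and 65.375 untreated, 90.375, 49.5 and 93.125 at 12 h, and 58.125 and 81.75 at 72 h, so all groups overlapped. The 4 tested OAS genes gave changes from -0.15 to 0.51 at 72 h, with Oasl1 at the top (limma adjusted p not under 0.05). Oas1c (-0.67) and Ifitm5 (-0.88) were, after Mx2, the lowest members at 12 h, and neither passed.

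The members were also counted as a whole beside all genes tested. A call required an adjusted p under 0.05 together with a change of at least 2-fold. At 12 h, limma called 0 of the 37 tested members in either direction. Among all 12673 genes the calls reached 1.11% in the higher direction and 0.308% in the lower. At an unadjusted p under 0.05, 3 members were higher (8.11% of members, 7.96% of all genes) and 8 lower (21.6% of members, 8.33% of all genes). By the adjusted p alone 1 was higher, Ifi30 (2.7% of members, 2.87% of all genes), and 1 lower, Stat3 (2.7% and 1.5%). In 4 members all RA libraries lay above all untreated ones (10.8% of members, 9.42% of all genes), and in 9 they lay below (24.3% and 10.6%). The median log2 change was -0.12 for the members, with 13 above 0 and 24 below, and -0.02 for all genes.

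At 72 h against untreated, 2 members (5.41%) were called lower, Ifit1 and Irf7, where 1.52% of all genes were called lower, and 0 were called higher, where 2.15% of all genes were. By the unadjusted p 7 were lower (18.9% of members, 12.4% of all genes) and 4 higher (10.8% and 11.5%). In 10 members the 72 h libraries lay below all untreated ones (27% of members, 19.4% of all genes), and in 5 they lay above them (13.5% and 17.2%). The median was -0.08 for members and -0.02 for all genes.

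From 12 h to 72 h of RA, 0 members were called in either direction by limma, against 0.765% of all genes higher and 0.734% lower. By the adjusted p alone Stat3 was higher (2.7% of members, 2.92% of all genes) and 0 members were lower (2.92% of all genes). At an unadjusted p under 0.05, 3 were higher (8.11% of members, 8.86% of all genes) and 6 lower (16.2% and 10%). In 9 members the 72 h libraries lay above all 12 h libraries (24.3% of members, 18.1% of all genes), and in 10 they lay below (27% and 19.2%). The most negative changes were those of Ifi44 (-0.85), Ifit1 (-0.77) and Isg15 (-0.65), and the most positive those of Oas1c (0.53), Stat3 (0.51) and Ifitm5 (0.47), of which Stat3 alone passed the adjusted p.

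**Figure D3:**
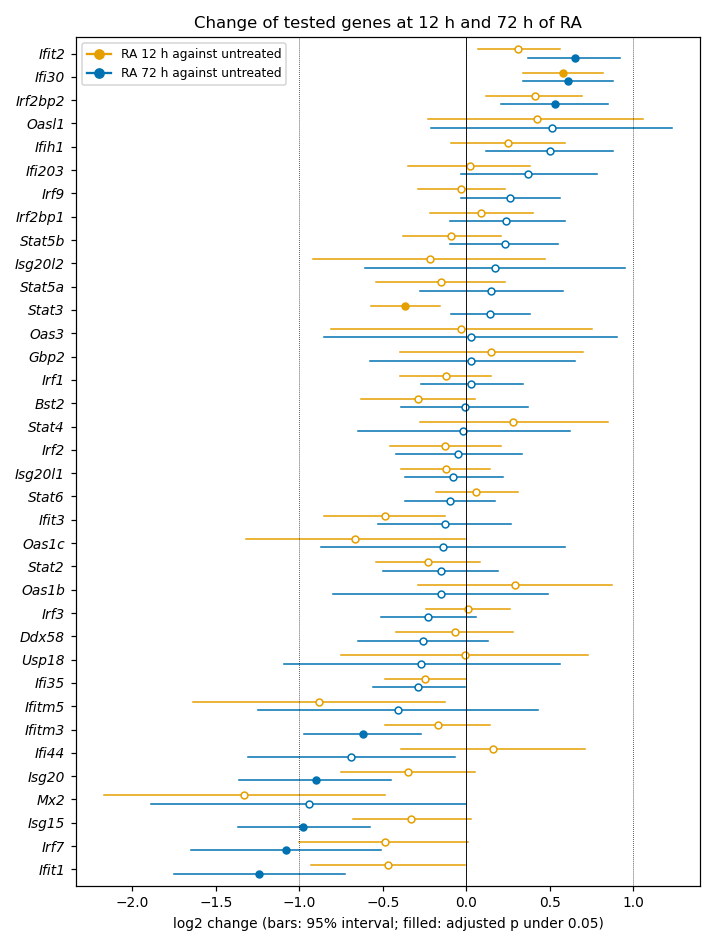
Log2 change of tested members against untreated cells, on the log2(value + 1) scale, at 12 h and at 72 h of RA, with 95% intervals from limma. Filled points passed an adjusted p of 0.05, and dotted lines mark 2-fold. At 72 h Ifit1 (-1.24) and Irf7 (-1.08) lie at the low end and Ifit2 (0.65) and Ifi30 (0.61) at the high end.

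Tested members with and without the ISRE letters are set side by side as a description. Of the 37 tested members, 32 had a window, and Mx2 was among those without one. For the 14 with a match the median log2 change at 12 h was -0.15, and at 72 h it was -0.09, where 4 lay above 0 and 10 below, from -1.24 (Ifit1) to 0.50 (Ifih1). For the 18 without a match these medians were -0.06 and 0.15, where at 72 h 11 lay above 0 and 7 below, from -1.08 (Irf7) to 0.65 (Ifit2). At 12 h, 4 lay above 0 and 10 below with the letters, and 8 above and 10 below without. From 12 h to 72 h the medians were 0.07 with the letters (8 above 0, 6 below) and 0.14 without (12 above, 6 below). Of the 8 members past the adjusted p at 72 h, Ifit1, Isg15 and Ifitm3 held the letters and Irf7, Isg20, Ifit2, Ifi30 and Irf2bp2 did not. The 3 with the letters were all lower. Of the 5 without them, Irf7 and Isg20 were lower and Ifit2, Ifi30 and Irf2bp2 were higher. These 8 were taken because they passed, and a link between the letters and the direction was not tested.

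**Figure D4:**
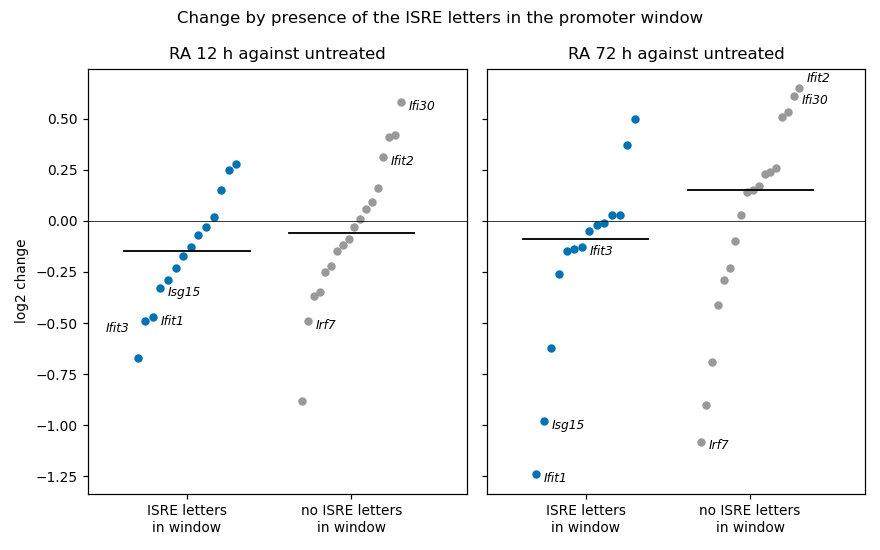
Log2 change against untreated cells at 12 h and 72 h of RA for the 14 tested members with the ISRE core in their promoter window and the 18 without it. Points are genes and bars are medians, at -0.09 with and 0.15 without the letters at 72 h, and the ranges overlap.

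The libraries also differed along an axis that the groups do not explain, which held 50.1% of the variance within groups. On one side lay the untreated replicates 1 and 2 with replicate 3 of the RA 12 h group and replicate 2 of the RA 72 h group, and the remaining libraries lay on the other. The axis was found after each group was centred on its own mean, so every group had to split between the sides. Within each side the 72 h change was -0.96 and -1.57 for Ifit1, -1.13 and -0.90 for Irf7 and -0.91 and -1.01 for Isg15. That of Stat3 from 12 h to 72 h was 0.48 and 0.53. Each side held a single RA 72 h library, and these are the libraries of the main fit, so the values are not separate replications. Fibroblast markers, 8 of 9 at 10 or more, summed to 236500 to 257100 normalised reads untreated, 237900 to 248500 at 12 h and 216600 to 222400 at 72 h, so they were lowest in the group where Ifit1 and Irf7 were lowest, and their part in the result was not tested. Summed markers of haematopoietic cells were 75 to 118 untreated, 79.38 to 89.12 at 12 h and 75.38 to 94.75 at 72 h, with overlap between groups, and the 5 endothelial markers (39.38 to 73.5 over all libraries) and the epithelial ones (19.12 to 35.62) were as low. In bulk RNA, fewer cells expressing a gene and less of its RNA per cell cannot be told apart.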

How the data were processed

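Per the labels, polyadenylated RNA of 8 cultures was made into DpnII tag libraries, while the study's methods describe fragmented RNA aligned to mm9 and counted per Ensembl gene. Which was used here is not settled. The authors deposited normalised reads per gene as decimal numbers. The sorted values of the 8 columns are identical, so the libraries were quantile normalised. These are not counts, the depth of each library is unknown, the floor is 1, and a lower level in one library cannot be read as lower depth. Columns of the authors' log2 ratios and group averages were not used. 1 line without a gene was left out. 1 member is counted with the others but is not reported here.

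Values were taken as log2(value + 1), which understates the change of low genes. Genes with a mean of at least 10 (12673 of 22200) were fitted with limma 3.58.1 in R 4.3.3, in one model of 3 groups with a variance trend, and two-sided p-values were adjusted by Benjamini-Hochberg over all of them. The study's rule of 2-fold was kept. The script was tested on simulated data. A fixed panel of 20 genes, the genes past the adjusted p and the 3 largest changes each way were named. Members and lists were chosen with earlier results of these data known. Ifitm6, Ifi44, Oas1c and the remaining named genes outside that rule were chosen after their values were seen. Gene coordinates are 1-based on mm9, and promoters are from RefSeq on GRCm38.p6. Alternatives were another pseudocount, other filters, each library left out, the replicate block, the side of the axis as a term, no variance trend and median-ratio scaling.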

Additional observations from a re-analysis of the deposited data

Results flagged for a closer look

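Stat3 was flagged because its level differed between the RA times past the adjusted p. The log2 change from 12 h to 72 h was 0.51 ± 0.11 (limma adjusted p = 0.013), higher in 2 of 2 libraries at 72 h than in every library at 12 h. That is 2.7% of members past the adjusted p and higher, beside 2.92% of all genes. In 18.1% of all genes the 72 h libraries likewise lay above all 12 h libraries. The Stat3 change no longer passed in 5 of 15 alternatives, and ranged from 0.48 to 0.56 over the 15. The change against untreated cells was -0.37 at 12 h and 0.14 at 72 h. The untreated libraries were taken at 12 h only, so RA and time in culture cannot be told apart in this difference.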

How the results depend on the processing

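With 2 libraries at 72 h, single libraries decide many calls. Of 45 log2 changes followed under 15 alternatives, 601 of 660 values kept direction and side of the adjusted p, 38 lost it, 17 gained it and 4 reversed. Only 11 of the 45 passed in the main fit, and all 38 losses fell on these. Some alternatives cannot move a change, as when an RA 12 h library is left out for 72 h against untreated. The 601 is thus no measure of how stable the calls are. At 12 h, where 0 members were called, 2 passed by the adjusted p alone, and leaving out libraries gave 0 to 2, the 2 being Mx2 and Oas1c without untreated replicate 3. At 72 h, where 2 were called, there was 1 with a pseudocount of 10 (Ifit1), 1 with a mean of at least 50 (Irf7, since Ifit1 was not tested there) and 8 by the adjusted p alone. Leaving out libraries gave 1 to 4: Ifit1 alone without untreated replicate 2, Ifi44 alone without RA 72 h replicate 1, and Ifit1, Irf7, Isg15 and Isg20 without untreated replicate 3. From 12 h to 72 h, where 0 were called, 1 passed by the adjusted p alone (Stat3), and leaving out libraries gave 0 to 1, the 1 being Ifi44 without RA 72 h replicate 1. Near 0 the change of Ifi30 from 12 h to 72 h (0.03) reversed to -0.03 without RA 12 h replicate 3, -0.05 without RA 72 h replicate 2 and -0.01 with the replicate block, and ranged from -0.05 to 0.11 over the libraries left out. That of Irf2bp2 (0.12) reversed to -0.02 without RA 72 h replicate 1, with a range from -0.02 to 0.27. Apart from these constructions the cause was not tested.

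Deviations of same-numbered libraries from their group means gave correlations from -0.474 to 0.42. With 2 or 3 libraries in a group, the deviations within it are tied to each other. These correlations therefore cannot decide whether the replicate numbers pair the samples. With the replicate block 2 members were called at 72 h, 0 at 12 h and 0 between the times, and Ifitm3 (adjusted p = 0.0837) and Irf2bp2 (0.119) at 72 h and Stat3 at 12 h (0.103) no longer passed. With no filter on low values Ifitm6 was also called lower at 72 h. The normalization removed depth, so neither counting error nor a detection limit can be given.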

Other observations

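Genes of antigen presentation and other interferon-stimulated genes that are not members were followed from lists. Of 8 tested antigen presentation genes, 2 were lower past the adjusted p at 72 h, beside 5.41% of all genes, and 0 higher, beside 6.08%. H2-K1, a classical class I heavy chain, read 307.625, 267.375 and 347.25 normalised reads untreated, 305.75, 308.375 and 289.25 at 12 h, and 137 and 119.875 at 72 h, a log2 change of -1.25 ± 0.14 (limma adjusted p = 6.8e-05). Tapbp, which loads peptide on class I molecules, changed by -0.41 at 12 h and -0.88 at 72 h (limma adjusted p = 0.0443 and 0.000259). B2m, the light chain, and H2-D1 gave 0.19 and -0.02 at 72 h, and neither passed. Class I genes resemble each other in sequence, so reads may be split between them.

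Of 22 other interferon-stimulated genes tested, 1 was lower past the adjusted p at 12 h, beside 1.5% of all genes. At 72 h 3 were lower and 1 higher, beside 5.41% and 6.08% of all genes. Ccl5, a chemokine, had the largest change of this list. It read 88.5, 150.75 and 82.375 normalised reads untreated, 43, 45 and 65.625 at 12 h, and 4.75 and 3.375 at 72 h, without overlap between groups. Its log2 change was -1.02 ± 0.27 (limma adjusted p = 0.0524) at 12 h and -4.38 ± 0.30 (limma adjusted p = 1e-06) at 72 h, and -3.35 (limma adjusted p = 4.09e-05) from 12 h to 72 h. Nmi, which binds STATs, read 130.25, 135.125 and 134 untreated, 71.25, 82 and 66.375 at 12 h, and 101.125 and 114.25 at 72 h. Its change at 12 h was -0.86 ± 0.15 (limma adjusted p = 0.00302), and at 72 h it was -0.31 (limma adjusted p = 0.279), with a change from 12 h to 72 h of 0.55 that did not pass (limma adjusted p = 0.0669). Trim21 (-0.61) and Samd9l (-0.81) were lower and Pml (0.49) higher at 72 h. Median changes of this list were -0.15 at 12 h and -0.25 at 72 h, beside -0.02 for all genes at each time.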
